A study of Homo sapiens with 6 samples.

Results

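The NEDD4 family consists of ubiquitin ligases that carry a lipid-binding C2 domain, several WW domains and a catalytic HECT domain, and the NDFIP proteins are membrane adaptors that bind their WW domains. The 10 genes examined were taken by name from the 32679 genes of the deposited table. They comprised 8 ligases (NEDD4, NEDD4L, ITCH, WWP1, WWP2, SMURF1, SMURF2 and HECW2) and 2 adaptors (NDFIP1 and NDFIP2). Their expression was measured by short-read RNA-seq of poly(A) RNA in HEY cells, an established ovarian cancer cell line. Both groups comprised 3 samples, shNC with a control hairpin and shPQBP1 with a hairpin against PQBP1, a nuclear splicing factor that itself has a WW domain. All 6 samples were labelled day 3, although the methods give 48 or 72 h after induction. A supplementary caption of the study gives 48 h of doxycycline for its exon inclusion and skip counts in PQBP1-depleted HEY cells. The shPQBP1 samples received doxycycline at 1 µg/ml and the shNC samples no treatment. The effect of the hairpin therefore cannot be told apart from that of doxycycline. The lines were made with lentiviral pGIPZ vectors and puromycin selection, and whether each was 1 clone was not given in the sources used here. The comparison asks which transcripts change when PQBP1 is depleted. The submitters describe the samples as biological triplicates, and p-values measure the spread between these samples.

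HECT ligases take ubiquitin from an E2 enzyme onto their own catalytic cysteine and then pass it to a substrate. The WW domains choose the substrate by binding short proline-rich PY motifs, either in the substrate itself or in an adaptor. NDFIP1 and NDFIP2 hold several PY motifs, sit on Golgi and endosomal membranes, and both recruit and activate the ligases. In epithelial cells the family is known for removing ion channels and receptors from the surface, for limiting TGF-β signalling and for degrading transcription factors and tumour suppressors such as LATS1.

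All values are gene-level FPKM (fragment counts divided by transcript length and by the mapped fragments of each library) as deposited, and the sequencing depth behind them is unknown. The sum of FPKM lay between 278286 and 318484 per sample, and shNC replicate 1 had the lowest correlations with the other samples (r of 0.926 to 0.955 on the log scale). PQBP1 itself was 6.93 ± 0.255 FPKM (SD, n = 3) in shNC and 1.61 ± 0.151 in shPQBP1, a log2 fold change of -2.04 ± 0.10 (SE; limma, adjusted p = 0.00154). Of the epithelial markers, KRT7, KRT8 and KRT18 lay between 52.76 and 94.56 FPKM, whereas EPCAM was 0.79 to 1.13 and CDH1 at most 0.06. KRT19 was 1.19 to 1.65 FPKM in shNC and 1.70 to 2.10 in shPQBP1 (limma, adjusted p = 0.218). Of the 4 ovarian carcinoma markers, PAX8 was 12.33 to 15.70 FPKM in shNC and 18.41 to 24.08 in shPQBP1 (limma, adjusted p = 0.102), and MSLN rose from between 11.96 and 14.43 FPKM to between 22.81 and 25.56 (log2 fold change 0.82 ± 0.10, SE; limma, adjusted p = 0.0187). WT1 was 0.63 to 0.71 FPKM in shNC and 0.31 to 0.45 in shPQBP1, and MUC16 was at most 0.01. Their summed FPKM was 25.0 to 30.8 in shNC and 41.8 to 49.98 in shPQBP1. The mesenchymal marker VIM was 1111.87 to 1226.58 FPKM in shNC and 1271.71 to 1342.76 in shPQBP1 (limma, adjusted p = 0.217). FN1 rose from between 42.51 and 44.57 FPKM to between 127.42 and 154.68 (log2 fold change 1.72 ± 0.09 SE, limma, adjusted p = 0.00176). CDH2 was 20.34 to 23.18 FPKM in shNC and 22.69 to 24.32 in shPQBP1. The leukocyte gene PTPRC was listed at 0 in all 6 samples, and of the 3 endothelial genes VWF was at most 0.04 FPKM. PECAM1 was 0.23 to 0.25 FPKM in shNC and 0.02 to 0.06 in shPQBP1, and CDH5 was 2.11 to 2.96 and 3.10 to 3.64 (limma, adjusted p = 0.151). The summed FPKM of the 3 mesenchymal markers (VIM, CDH2 and FN1) was 1176 to 1292 in shNC and 1424 to 1522 in shPQBP1, and that of the 6 epithelial markers was 193 to 228 and 201 to 221. The part of these marker differences in the results for the members was not tested. In bulk RNA, a smaller number of cells expressing a gene cannot be told apart from less RNA per cell.

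NEDD4 is the member for which the study designed RT-PCR primers, and these are shown because they mark which stretches of its transcript can be told apart by an amplicon, whereas an FPKM value cannot separate them. The gene lies on the reverse strand of chromosome 15 (hg38, 55826922 to 55993660), and GENCODE release 44 marks a transcript of 29 exons and 5735 bases as canonical. A forward and a reverse primer pair exons 1 and 5, another pair covers exons 9 to 11, and the last pair, for quantitative PCR, starts across the junction of exons 9 and 10. Capitals mark the bases of the junction primer that lie in exon 10, and the other primers each lie in 1 exon.
NEDD4-semi-E1-F: tggaagcgttcggaaatgg
NEDD4-semi-E5-R: ggtgctgctgaggatgaac
NEDD4-semi-CE9-F: cctggctgggttgttttgg
NEDD4-semi-CE11-R: ttgacggtggaggtgatgg
NEDD4-qPCR-F: tcaGGACAACCTAACAGATGCT
NEDD4-qPCR-R: ttctgcaagatgagttggaacat
On the canonical transcript these give products of 271, 358 and 226 bases, in that order. The exon 1 primer matched 4 of the 13 NEDD4 transcripts of GENCODE release 44, which is a larger set than the 10 transcripts the deposited table lists for the gene (chr15:55993552-55993570) and the exon 5 primer 6 of 13 (chr15:55924681-55924699). The exon 9 primer matched 9 of 13 (chr15:55863061-55863079) and the exon 11 primer 7 of 13 (chr15:55860502-55860520). The first pair thus reads a 5′ end carried by fewer annotated transcripts than the exons 9 to 11. The deposited table gives 1 value per gene, so no share of any of these transcripts was computed. The study itself used semi-quantitative RT-PCR to examine spliced isoforms and qPCR to measure the expression of selected genes.

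The other members are spread over 9 further chromosomes. On hg38, NEDD4L lies at 58044226 to 58401540 of chromosome 18, ITCH at 34363235 to 34511773 of chromosome 20 and WWP2 at 69762328 to 69941741 of chromosome 16, all on the forward strand. SMURF1 (chromosome 7, 99027440 to 99144108), SMURF2 (chromosome 17, 64542282 to 64662307) and HECW2 (chromosome 2, 196189099 to 196593684) lie on the reverse strand. WWP1 is on chromosome 8, NDFIP1 spans 142108779 to 142154440 of chromosome 5 and NDFIP2 spans 79481155 to 79556077 of chromosome 13. The ligase transcripts have 18 to 31 exons, and those of NDFIP1 and NDFIP2 have 8 each. Of the 10 canonical transcripts, 8 had a GC content below the median of 47.5% of the tested genes, from 34.8% in NDFIP2 to 45.6% in NEDD4L. WWP2 at 57.4% and SMURF1 at 51.9% lay above it.

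All 10 genes were expressed in HEY cells, and SMURF2 exceeded every other member in each of the 6 samples. In shNC, mean FPKM descended from SMURF2 (58.5) through NDFIP1 (15.1), NEDD4 (13.3), ITCH (12.8), NEDD4L (11.5), NDFIP2 (11.2), WWP1 (9.08), SMURF1 (5.65) and WWP2 (3.79) to HECW2 (1.05). Neighbours between NDFIP1 and WWP1 in this order had overlapping samples, whereas SMURF2, SMURF1, WWP2 and HECW2 were each apart from their neighbours. In shPQBP1 the order was SMURF2 (69.6), NEDD4 (22.9), ITCH (13.4), NDFIP2 (11.6), NEDD4L (11.0), NDFIP1 (10.7), WWP1 (10.3), SMURF1 (5.41), WWP2 (3.27) and HECW2 (1.49). NDFIP1 thus stood in place 2 in shNC and place 6 in shPQBP1, and NEDD4 in place 3 and place 2, although the samples of ITCH to WWP1 overlapped between neighbours. HECW1, the remaining mammalian ligase of the family, was at 0.08 to 0.18 FPKM and was not tested.

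**Figure D1:**
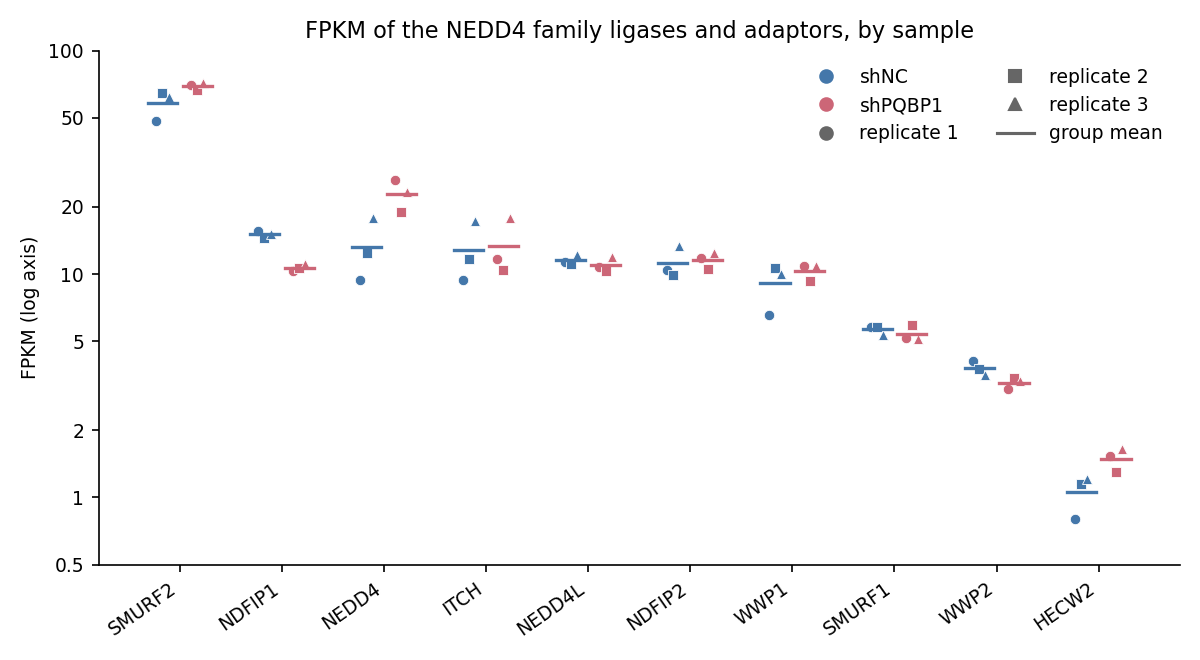
FPKM (log axis) of the 10 genes in each sample, ordered by the shNC mean, with shNC in blue, shPQBP1 in red, 1 symbol per replicate number and a bar at the group mean. The red NDFIP1 points (10.29 to 11.06) lie below the blue ones (14.58 to 15.66), and the red NEDD4 points (18.98 to 26.44) lie above the blue ones (9.45 to 17.90).

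Upon PQBP1 knockdown, NDFIP1 fell and none of the 8 ligases passed the test. The groups were compared on log2(FPKM + 0.1) with limma over the 11413 genes whose mean FPKM reached 1, and p-values were adjusted by the Benjamini-Hochberg method over all of them. All 10 members passed this filter, HECW2 being the nearest to it. At an adjusted p under 0.05, 1 of the 10 was called, NDFIP1 and lower in shPQBP1, against 2.91% of all tested genes in either direction and 1.18% lower. At an unadjusted p under 0.05, 3 of 10 were called against 23.6% of all genes, namely NEDD4 and HECW2 higher (11.9% of all genes) and NDFIP1 lower (11.7%). The samples of the groups did not overlap in 5 of 10 members against 34.4% of all genes. These were NEDD4, SMURF2 and HECW2 with higher shPQBP1 values (17.3% of all genes) and NDFIP1 and WWP2 with lower ones (17.1%). The median log2 fold change was 0.06 over the members and 0.02 over all tested genes, so the family as a whole had no common direction, with 6 values above 0 and 4 below.

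**Figure D2:**
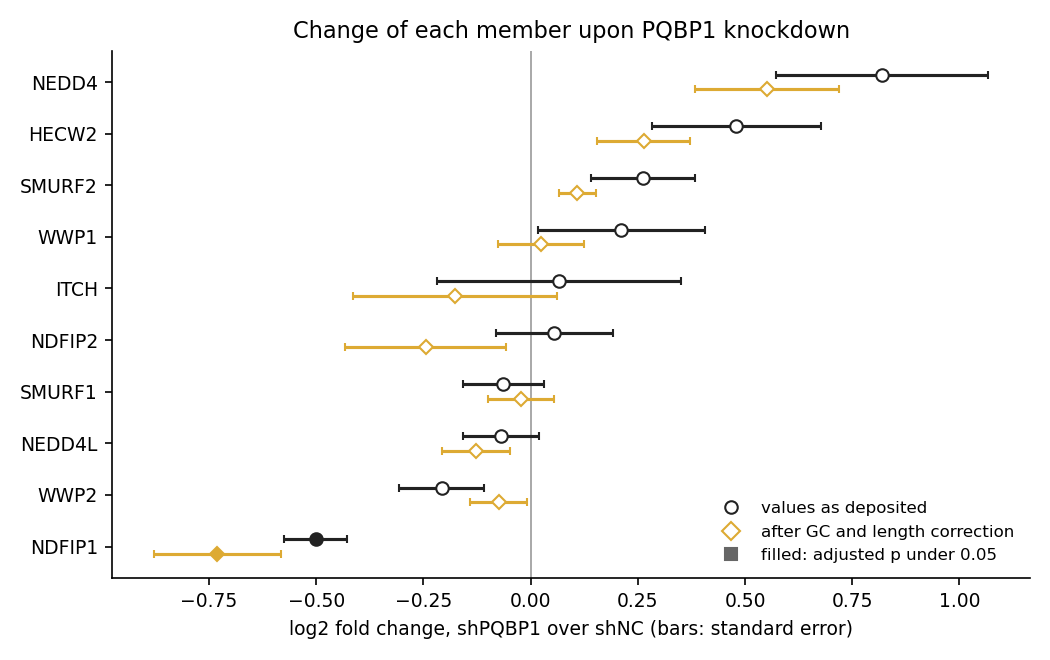
The log2 fold change of each member, shPQBP1 over shNC, with its standard error, from the deposited values (black circles) and after removing each sample's trend on GC content and transcript length (yellow diamonds), filled where the adjusted p was under 0.05. NDFIP1 is filled in both fits, at -0.50 and -0.73, and NEDD4 is open in both, at 0.82 and 0.55.

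NDFIP1, which brings NEDD4 family ligases to their substrates at Golgi and endosomal membranes, was the member that passed the test. Its FPKM was 15.66, 14.58 and 15.12 in shNC and 10.29, 10.61 and 11.06 in shPQBP1. Every shPQBP1 sample lay below every shNC sample, and the spread within both groups was small. The mean went from 15.12 ± 0.540 to 10.65 ± 0.387 FPKM (SD, n = 3 each), 0.705 of the shNC level, and the log2 fold change was -0.50 ± 0.07 (SE; limma, adjusted p = 0.0272). The processed pseudogene NDFIP1P1 was listed at 0 in all 6 samples. The call depended on which samples were kept: the adjusted p was 0.0308 without shNC replicate 1 but 0.0748 without shNC replicate 2, 0.108 without shNC replicate 3 and 0.13, 0.123 and 0.119 without shPQBP1 replicates 1, 2 and 3 (limma). The log2 fold change stayed between -0.53 and -0.48 in these fits. Over all tested genes, 332 were called with all 6 samples and 466, 93, 66, 46, 36 and 30 in these fits, in the same order.

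NDFIP2, the paralog with the same kind of PY motifs and membrane anchor, gave 10.43, 9.86 and 13.33 FPKM in shNC and 11.76, 10.54 and 12.41 in shPQBP1. The groups overlapped throughout. Its log2 fold change was 0.05 ± 0.14 (95% confidence interval -0.28 to 0.39; limma, adjusted p = 0.817), and it was -0.24 after the GC and length correction, so that no direction can be given. Within each sample the ratio of NDFIP2 to NDFIP1 was 0.666, 0.676 and 0.882 in shNC and 1.14, 0.993 and 1.12 in shPQBP1. NDFIP1 was thus the more abundant adaptor in each shNC sample, and both were near equal in shPQBP1. The log2 ratio differed by 0.56 ± 0.15 (SE), and the exact permutation test gave its smallest possible p of 0.1 (two-sided, adjusted p = 0.2 over 4 paralog pairs). After the GC and length correction this difference was 0.49.

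NEDD4, the founding ligase of the family, with substrates among receptors and signalling proteins, had the largest log2 fold change of the members but did not pass the test. FPKM was 9.45, 12.40 and 17.90 in shNC and 26.44, 18.98 and 23.20 in shPQBP1. The groups did not overlap, but the gap between shNC replicate 3 and shPQBP1 replicate 2 was small beside the range within shNC. Means were 13.25 ± 4.29 and 22.87 ± 3.74 FPKM (SD, n = 3 each), a ratio of 1.73, and the log2 fold change was 0.82 ± 0.25 (SE; 95% confidence interval 0.22 to 1.42; limma, adjusted p = 0.13). Over 16 alternative fits the log2 fold change lay between 0.55 and 1.06 and the adjusted p between 0.10 and 0.324 (limma). The lower end, 0.55, came from the GC and length correction. Its canonical transcript has a GC content of 37.6%, and across 11385 genes the log2 fold change fell with GC content (Spearman's rho of -0.46, a description across genes, which are not independent replicates). The part of GC content in the difference of NEDD4 was not tested.

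NEDD4L, the closest paralog and the ligase known for removing the epithelial sodium channel from the cell surface, was 11.37, 11.10 and 12.15 FPKM in shNC and 10.81, 10.30 and 11.91 in shPQBP1. The groups overlapped within a narrow range. The log2 fold change was -0.07 ± 0.09 (95% confidence interval -0.28 to 0.14; limma, adjusted p = 0.638). The ratio of NEDD4L to NEDD4 within a sample was 1.20, 0.895 and 0.679 in shNC and 0.409, 0.543 and 0.513 in shPQBP1. The ratios did not overlap between groups, and the log2 ratio differed by -0.89 ± 0.27 (SE; exact permutation test, two-sided, p = 0.1, adjusted p = 0.2 over the 4 pairs). This difference was -0.68 after the GC and length correction.

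**Figure D3:**
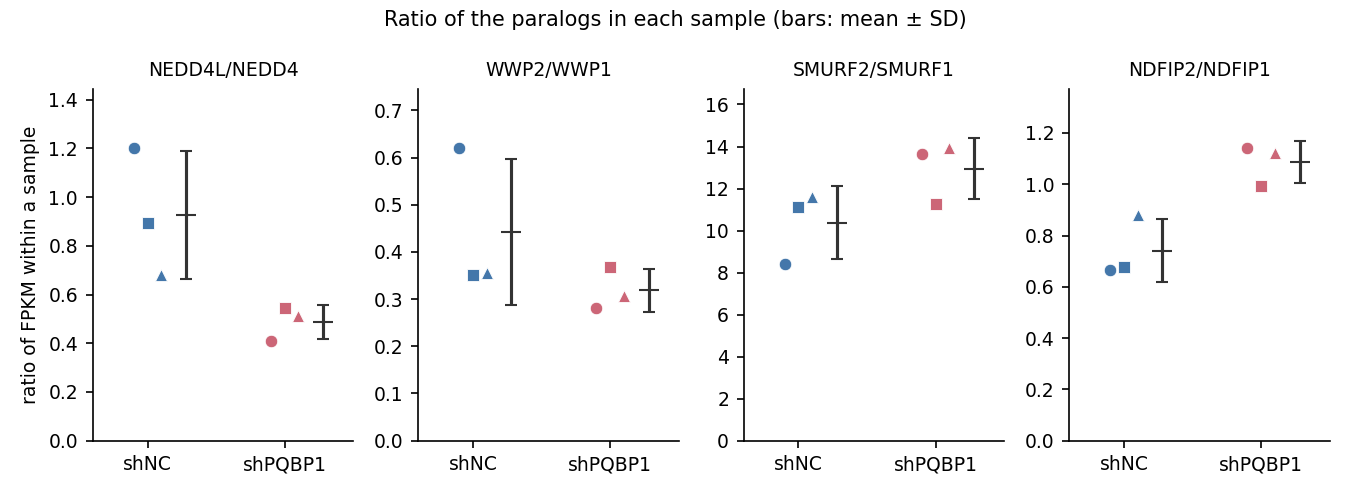
Ratio of the FPKM of 4 pairs of paralogs within each sample, shNC in blue and shPQBP1 in red, with circles, squares and triangles for replicates 1, 2 and 3 and a bar for mean ± SD. The groups are apart for NEDD4L/NEDD4 (mean 0.926 and 0.488) and NDFIP2/NDFIP1 (mean 0.741 and 1.09) and overlap for WWP2/WWP1 and SMURF2/SMURF1.

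SMURF2 and SMURF1 are the ligases that bind SMAD proteins and, through SMAD7, the TGF-β receptor. SMURF2 was 48.54, 64.77 and 62.21 FPKM in shNC and 70.43, 66.89 and 71.55 in shPQBP1. The groups did not overlap, and shNC replicate 1 stood well below the remaining 5 samples. The log2 fold change was 0.26 ± 0.12 (SE; limma, adjusted p = 0.247) and it was 0.13 without shNC replicate 1 and 0.11 after the GC and length correction. SMURF1 was 5.77, 5.82 and 5.36 FPKM in shNC and 5.17, 5.93 and 5.13 in shPQBP1, with overlapping groups and a log2 fold change of -0.06 ± 0.09 (95% confidence interval -0.29 to 0.16; limma, adjusted p = 0.686). SMURF2 exceeded SMURF1 8.41-fold, 11.1-fold and 11.6-fold in the shNC samples and 13.6-fold, 11.3-fold and 13.9-fold in the shPQBP1 samples. These ratios overlapped, with a log2 difference of 0.33 ± 0.18 (SE; exact permutation test, two-sided, p = 0.2, adjusted p = 0.267). This difference was 0.13 after the GC and length correction.

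ITCH, which ubiquitinates JUN family transcription factors and p63, did not follow the groups. It was 9.45, 11.68 and 17.35 FPKM in shNC and 11.71, 10.48 and 17.90 in shPQBP1, so that replicate 3 was the highest sample of both groups. The log2 fold change was 0.07 ± 0.28 (SE; 95% confidence interval -0.62 to 0.76; limma, adjusted p = 0.900). Without shPQBP1 replicate 3 it was -0.16, without shNC replicate 1 it was -0.13 and after the GC and length correction it was -0.18, so that no direction can be given.

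WWP1 and WWP2 are paralogs named for their WW domains, with substrates that include transcription factors. WWP1 was 6.57, 10.69 and 9.99 FPKM in shNC and 10.87, 9.31 and 10.82 in shPQBP1. Only shNC replicate 1 was apart from the others, and the log2 fold change of 0.21 ± 0.20 (SE; limma, adjusted p = 0.519) became -0.0037 without it and 0.02 after the GC and length correction. WWP2 was 4.08, 3.75 and 3.54 FPKM in shNC and 3.05, 3.43 and 3.32 in shPQBP1. Its groups did not overlap, by a margin between 3.54 and 3.43 FPKM, and the log2 fold change was -0.21 ± 0.10 (SE; limma, adjusted p = 0.253), or -0.07 after the correction. The ratio of WWP2 to WWP1 overlapped between groups, with a log2 difference of -0.43 ± 0.30 (SE; exact permutation test, two-sided, p = 0.3, adjusted p = 0.3). This difference was -0.10 after the GC and length correction.

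HECW2, a ligase known mainly from the nervous system, was near the limit of the filter. It was 0.80, 1.15 and 1.21 FPKM in shNC and 1.54, 1.30 and 1.64 in shPQBP1. The groups did not overlap, and the log2 fold change was 0.48 ± 0.20 (SE; limma, adjusted p = 0.211), or 0.26 after the GC and length correction. HECW2-AS1, a transcript of the opposite strand that overlaps the gene, was at 0.85 to 1.48 FPKM. Whether the libraries keep strand is not given in the sources used here, so reads of the overlapping stretch cannot be assigned to either gene with certainty. Protein-coding genes on the opposite strand also overlap WWP1, SMURF1 and SMURF2. RMDN1, over WWP1, was 5.98 to 7.25 FPKM in shNC and 8.95 to 9.78 in shPQBP1. CEP95, over SMURF2, was 2.92 to 3.83 and 2.69 to 2.79. TRRAP, over SMURF1, was 2.28 to 2.64 and 2.12 to 2.31. The part of these genes in the values of the members was not tested. An unnamed protein-coding gene model overlaps ITCH on its own strand. Unnamed long non-coding RNA models overlap NDFIP1, NEDD4L and ITCH on their own strands, without values here.

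The makeup of the ligase pool was compared as the share of each ligase in the summed FPKM of the 8. The sum was 96.0, 121 and 130 FPKM in shNC and 140, 127 and 145 in shPQBP1, and the groups overlapped (115.7 ± 17.5 and 137.4 ± 9.70, SD, n = 3 each; exact permutation test, two-sided, p = 0.2). SMURF2 made up 50.6 ± 2.71% of the sum in shNC and 50.8 ± 1.87% in shPQBP1 (SD, n = 3; exact permutation test, p = 1.0), about equal in both. The share of NEDD4 was 9.84%, 10.2% and 13.8% in shNC and 18.9%, 15.0% and 15.9% in shPQBP1, and the groups did not overlap (exact permutation p = 0.1). NEDD4L made up 11.8%, 9.15% and 9.37% in shNC and 7.72%, 8.13% and 8.19% in shPQBP1, also without overlap (exact permutation p = 0.1). WWP2 (3.36% and 2.39% on average) and HECW2 (0.905% and 1.08%) did not overlap either, at the same exact permutation p of 0.1, the smallest that 3 against 3 samples allow. The shares of ITCH (10.9% and 9.65%), WWP1 (7.78% and 7.52%) and SMURF1 (4.98% and 3.97%) overlapped. Shares within a sample sum to 100%, so the higher share of 1 ligase lowers the others. They were computed from the deposited values only, not after the GC and length correction. With that correction the log2 fold change went from 0.82 to 0.55 for NEDD4, -0.21 to -0.07 for WWP2 and 0.48 to 0.26 for HECW2. That of NEDD4L went from -0.07 to -0.13.

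The genes that work with the family were examined in 5 lists. Of the other HECT ligases, 18 of 20 were tested and none was called at an adjusted p under 0.05, with 1 at an unadjusted p under 0.05 (limma; 2.91% and 23.6% of all tested genes) and a median log2 fold change of 0.08. That gene was G2E3, at 1.32, 3.01 and 2.31 FPKM in shNC and 3.76, 3.61 and 4.07 in shPQBP1 (log2 fold change 0.83 ± 0.28, SE; limma, adjusted p = 0.155). Among the 11 E1 and E2 enzymes, which activate ubiquitin and hand it to the ligases, none was called at either threshold (limma, median -0.09). The smallest p was that of UBE2D1, with a log2 fold change of 0.41 ± 0.19 (SE; limma, adjusted p = 0.251). Of the 6 kinases known to phosphorylate the ligases, none was called at an adjusted p under 0.05 and 1 of 6 at an unadjusted p under 0.05, a share not above the 23.6% of all tested genes. This was MAPK8, the JNK1 kinase that activates ITCH (log2 fold change -0.35 ± 0.14, SE; limma, adjusted p = 0.189; median of the list -0.13). After the GC and length correction the log2 fold change was 0.51 for G2E3, 0.14 for UBE2D1 and -0.62 for MAPK8.

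The list of PY-motif adaptors and regulators held 4 of the 5 calls made over all lists. Of 17 genes, 16 had a row and 13 were tested, of which 1 rose and 3 fell at an adjusted p under 0.05 (limma), against 2.91% of all genes. The list was chosen with earlier results of these data known, so this count is a description and no test of the list. The list median was 0.03. LAPTM5, a lysosomal membrane protein of blood cells that needs NEDD4 for its transport, fell from 5.76, 5.06 and 5.15 FPKM in shNC to 0.78, 1.16 and 0.81 in shPQBP1 (log2 fold change -2.43 ± 0.17, SE; limma, adjusted p = 0.00407). It stayed called without any 1 sample, at an adjusted p of at most 0.0335 (limma). LAPTM5 is a leukocyte gene by textbook knowledge, and 3 of the 5 leukocyte markers had a row. PTPRC was at 0 in every sample, CD14 was at most 0.15 FPKM, and the summed level of 9.12 to 15.66 FPKM in shNC and 12.29 to 21.23 in shPQBP1 came almost wholly from CD68, a lysosomal protein.

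TXNIP, an arrestin-like protein that binds ITCH and represses glucose uptake, rose from 12.40, 11.60 and 13.42 FPKM to 23.59, 26.50 and 25.30 (log2 fold change 1.01 ± 0.09, SE; limma, adjusted p = 0.00803). It was at an adjusted p of 0.0560 without shPQBP1 replicate 2 and 0.0640 without shPQBP1 replicate 3 (limma), and under 0.05 in the other 4 fits. LAPTM4B, a lysosomal relative of LAPTM5, fell from 31.96, 30.35 and 29.66 FPKM to 20.22, 21.85 and 23.00 (log2 fold change -0.50 ± 0.08, SE; limma, adjusted p = 0.0338). SMAD7, the inhibitory SMAD that brings the SMURF ligases to the TGF-β receptor, fell from 4.09, 3.59 and 3.76 FPKM to 2.50, 2.63 and 2.45 (log2 fold change -0.57 ± 0.09, SE; limma, adjusted p = 0.0345). For all 4 genes the groups were far apart compared with the spread within them.

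**Figure D4:**
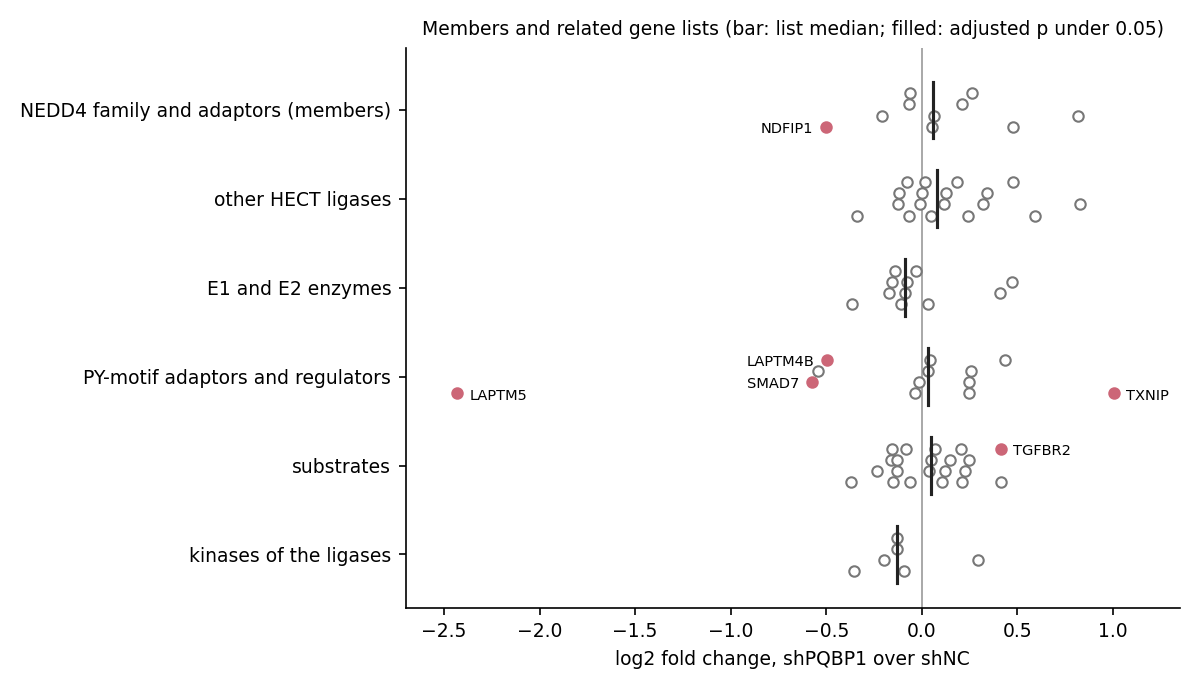
The log2 fold change (shPQBP1 over shNC) of the 10 members and of the tested genes of 5 related lists, 1 circle per gene with an arbitrary height within its row, a black bar at the list median and filled circles at an adjusted p under 0.05. The list medians lie between -0.13 and 0.08, and the filled circles are NDFIP1, LAPTM5, TXNIP, LAPTM4B, SMAD7 and TGFBR2.

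Of 29 proteins known as substrates of the family, 28 genes had a row, 21 were tested and 1 rose at an adjusted p under 0.05, while 4 had an unadjusted p under 0.05 and the list median was 0.05. Both counts lie near the shares over all tested genes (2.91% and 23.6%). TGFBR2, the type II TGF-β receptor, rose from 67.42, 69.46 and 68.63 FPKM in shNC to 86.43, 94.15 and 93.20 in shPQBP1 (log2 fold change 0.41 ± 0.07, SE; limma, adjusted p = 0.0328). Among the fits that left out 1 sample, the calls of TGFBR2, LAPTM4B and SMAD7 stayed, like that of NDFIP1, only without shNC replicate 1 (adjusted p = 0.0353, 0.0421 and 0.0425, limma). Leaving out any of the other 5 samples, shNC replicates 2 and 3 and shPQBP1 replicates 1, 2 and 3, gave an adjusted p of 0.0873 to 0.154 for TGFBR2, 0.0900 to 0.139 for LAPTM4B and 0.0820 to 0.156 for SMAD7. The transcript level of a substrate says nothing of its ubiquitination, which was not measured in these data.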

How the data were processed

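Poly(A) RNA of 6 HEY samples was sequenced in pairs. Per the labels and methods, the authors mapped reads to hg38 with HISAT2 (version 2.2.0), used SAMtools (version 1.9) and StringTie (version 1.3.0), and compared groups with edgeR. The deposited FPKM values, per gene and sample, have 2 decimals; the authors' fold change and p-value columns were not used. Depth is unknown here. A search for steps of whole reads in the low values gave strengths of 0.233 to 0.247 per sample, with no reference value to judge them by. FPKM is relative, so loss of abundant transcripts raises all others.

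Genes whose mean FPKM reached 1 were fitted on log2(FPKM + 0.1) with limma (version 3.58.1; lmFit, eBayes with trend, two-sided, Benjamini-Hochberg) in R 4.3.3. Fold changes are on this scale, which understates those of low genes. Ratios and shares used exact permutation tests (scipy version 1.17.1). Alternatives were median-of-ratios and quantile scaling, filters, pseudocounts of 1 and 0.01, no trend, a replicate block, leaving out each sample, and a GC and length correction (natural splines with 5 degrees of freedom, GENCODE release 44). Steps were tested on simulated data. The members and lists were chosen with earlier results of these data known. List genes were named where the adjusted p was under 0.05, otherwise by the smallest p.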

Additional observations from a re-analysis of the deposited data

How the results depend on the processing

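NEDD4, NEDD4L, WWP2, SMURF1, SMURF2 and HECW2 kept their sign and stayed above an adjusted p of 0.05 in every fit run, of which the filter at a mean FPKM of at least 10 left out WWP2, SMURF1 and HECW2. After the GC and length correction NEDD4L lay at -0.13 and SMURF1 at -0.02. Genes at an adjusted p under 0.05 numbered 332 as reported, 190 with every gene above 0, 211 at a mean FPKM of at least 10, 938 after the GC and length correction, and 30 to 466 when 1 sample was left out. When 1 sample was left out, 0 to 1 members were called, NDFIP1 lay between -0.53 and -0.48, and 1 to 3 members had an unadjusted p under 0.05. The 5 calls of the lists became 2 with every gene above 0, and 1 to 6 without 1 sample. They became 7 with quantile scaling and 7 after the GC and length correction. That correction added the substrates JUN and JUNB, both higher in shPQBP1 (limma, adjusted p = 0.00844 and 0.0401). Groups did not overlap in 3 members at a mean FPKM of at least 10, where fewer members remained. ITCH turned to -0.18 after the GC and length correction, and lay between -0.16 and 0.30 when 1 sample was left out (-0.13 without shNC replicate 1). WWP1 lay between -0.0037 (without shNC replicate 1) and 0.34 when 1 sample was left out. NDFIP2 turned to -0.24 after the correction and lay between -0.030 (without shNC replicate 2) and 0.19 when 1 sample was left out. The cause was not tested.

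With the replicate number as a block, 0 genes, 0 members and 0 list genes were at an adjusted p under 0.05 (limma), with 1840 genes at an unadjusted p under 0.05; NDFIP1 stayed at -0.50 (adjusted p = 0.220). Same-numbered samples deviated with r of -0.19, -0.14 and -0.01, and differently numbered samples with r of -0.14 to 0.22. Samples of the same number were thus not more alike. With 3 samples per group, whether the numbers mark pairs cannot be settled. The block with the GC and length correction, added after seeing the data, gave 21 genes, 0 members and 1 list gene, with NDFIP1 at -0.73 (adjusted p = 0.144), ITCH at -0.18 and NDFIP2 at -0.24.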

Other observations

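Some genes of the lists took separate levels that did not follow the groups, and were chosen for mention after their values were seen. AKT1, a kinase with many substrates, was 11.09, 9.48 and 10.59 FPKM in shNC replicate 1, shPQBP1 replicate 1 and shPQBP1 replicate 3, and 5.45, 5.16 and 5.78 in shNC replicates 2 and 3 and shPQBP1 replicate 2. SMAD5, which carries BMP signals, was 6.76 and 6.82 FPKM in shNC replicate 2 and shPQBP1 replicate 1 and 2.77 to 4.25 in the other 4 samples. RUNX2, a transcription factor of bone formation, was 1.07, 0.26 and 1.27 FPKM in shNC and 0.38, 1.86 and 0.42 in shPQBP1.

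ITCH had both replicate 3 samples above the other 4, the lower of them 1.48 times the highest of the others. Over the 11413 tested genes, 316 (2.77%) had both replicate 3 samples above the other 4, and 16 (0.14%) by at least the ratio of ITCH. Of the 10 members, 3 showed this order. The reason was not tested.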
